A study of Mus musculus with 10 samples.

Results

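Teratomas that carried the P81S form of the tumour suppressor VHL were compared with teratomas that carried the R167Q form. The comparison used 7 of the 10 arrays of the series, 4 P81S and 3 R167Q, chosen by genotype label alone, and the 3 wildtype teratomas are given beside them. Pluripotent cells placed in a host grow into such tumours, in which many tissues lie side by side. For all 3 groups the labels give the donor cells as J1 embryonic stem cells, known as a male line, of strain Sv/129, whose own Vhl genes were inactivated (Vhl-/-) and which expressed a human VHL cDNA, either P81S, R167Q or wildtype. Every line was injected under the skin of female nude (nu/nu) mice, and tumours were taken once the longest dimension reached 1 cm. The arrays labelled wildtype differed from both mutants in Y-linked signal. In them 3 broadly expressed Y-linked genes averaged 4.47 ± 0.22 log2 (SD, n = 3), against 8.95 ± 0.38 log2 in P81S (SD, n = 4) and 9.33 ± 0.20 log2 in R167Q (SD, n = 3). The reason for the low Y-linked signal in wildtype was not tested. Wildtype values are therefore only set beside those of the mutants. The labels call the P81S tumours apoptosis-resistant and both other groups apoptotic. Among the 4 P81S arrays 2 clones are represented by 2 tumours each, with no word on which arrays share a clone, and the promoter of the cDNA and the number of R167Q clones are not given in the sources used here. A difference between clones therefore cannot be told apart from a difference between VHL forms, and p-values measure only the spread between these tumours.

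VHL recognises hydroxylated hypoxia-inducible factors, which it presents to a ubiquitin ligase so that they are degraded as long as oxygen is present. Loss of that activity leaves the factors stable and raises their targets, among them genes of glycolysis and blood vessel growth. R167Q is a recurrent change of inherited VHL disease, and P81S is tied by the series title to trichloroethylene, with altered metabolism, cell death and ATM-mediated DNA damage signalling as the subjects. Teratomas add a second layer, since their gene expression also reflects how many donor cells stay pluripotent and which tissues the others become. In such bulk tumour RNA, fewer cells of a type and less RNA per cell cannot be told apart.

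Values are deposited log2 expression values, 1 per gene and array, for 18820 genes. A gene is called higher or lower at an adjusted p under 0.05 (limma, Benjamini-Hochberg over all genes), differences are P81S minus R167Q in log2 with their standard error, and a fold is 2 to the power of the size of that difference. Arrays of R167Q resembled each other closely across genes (r of 0.988 to 0.989), arrays of P81S less so (0.966 to 0.989), and pairs across the mutants spanned 0.942 to 0.980. P81S replicate 1 stood apart in epithelial and matrix genes and was given the lowest of the array weights in P81S, 0.316, against 3.44 for replicate 3. Chromosome 11 genes were lower in P81S replicates 1 and 2 alone: the median of its more highly expressed genes lay -0.35 and -0.34 log2 from the R167Q mean in those arrays and -0.01 and 0.00 in replicates 3 and 4. Chromosome 8 genes lay 0.15, 0.17, 0.11 and 0.14 log2 above R167Q by that measure. Of chromosome 8 genes 20.5% were called higher, against 12.4% of all genes. Calb2, Cpe, Herpud1 and Smad1, named below as higher, lie on that chromosome. For the label teratoma, the means of the pan-neuronal, skeletal and cardiac muscle, and gut lists were 10.8, 7.39 and 6.60 log2 in P81S and 9.97, 7.22 and 6.38 log2 in R167Q. Array medians over all probe sets were 6.97 to 7.11 log2, with the gut means below them and the muscle means just above. The gut and muscle means therefore cannot check that label.

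The mutants differed widely. Of the 18820 genes 4234 were called (22.5%), 2333 higher in P81S (12.4%) and 1901 lower (10.1%), and the change reached 2-fold for 629 and 495 of them. With each array centred on its median the split was 2836 higher and 1371 lower, so that the higher share of calls was 67.4% in place of 55.1%, at a shift of 0.08 log2 in the median gene. The P81S and R167Q arrays did not overlap for 5785 genes (30.7%). Without R167Q replicate 1 there were 2328 calls, the lowest count when any single array was left out. Interneuron, ion channel and pan-neuronal lists had the highest medians, and pluripotency, mitosis and germ cell lists the lowest.

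**Figure D1:**
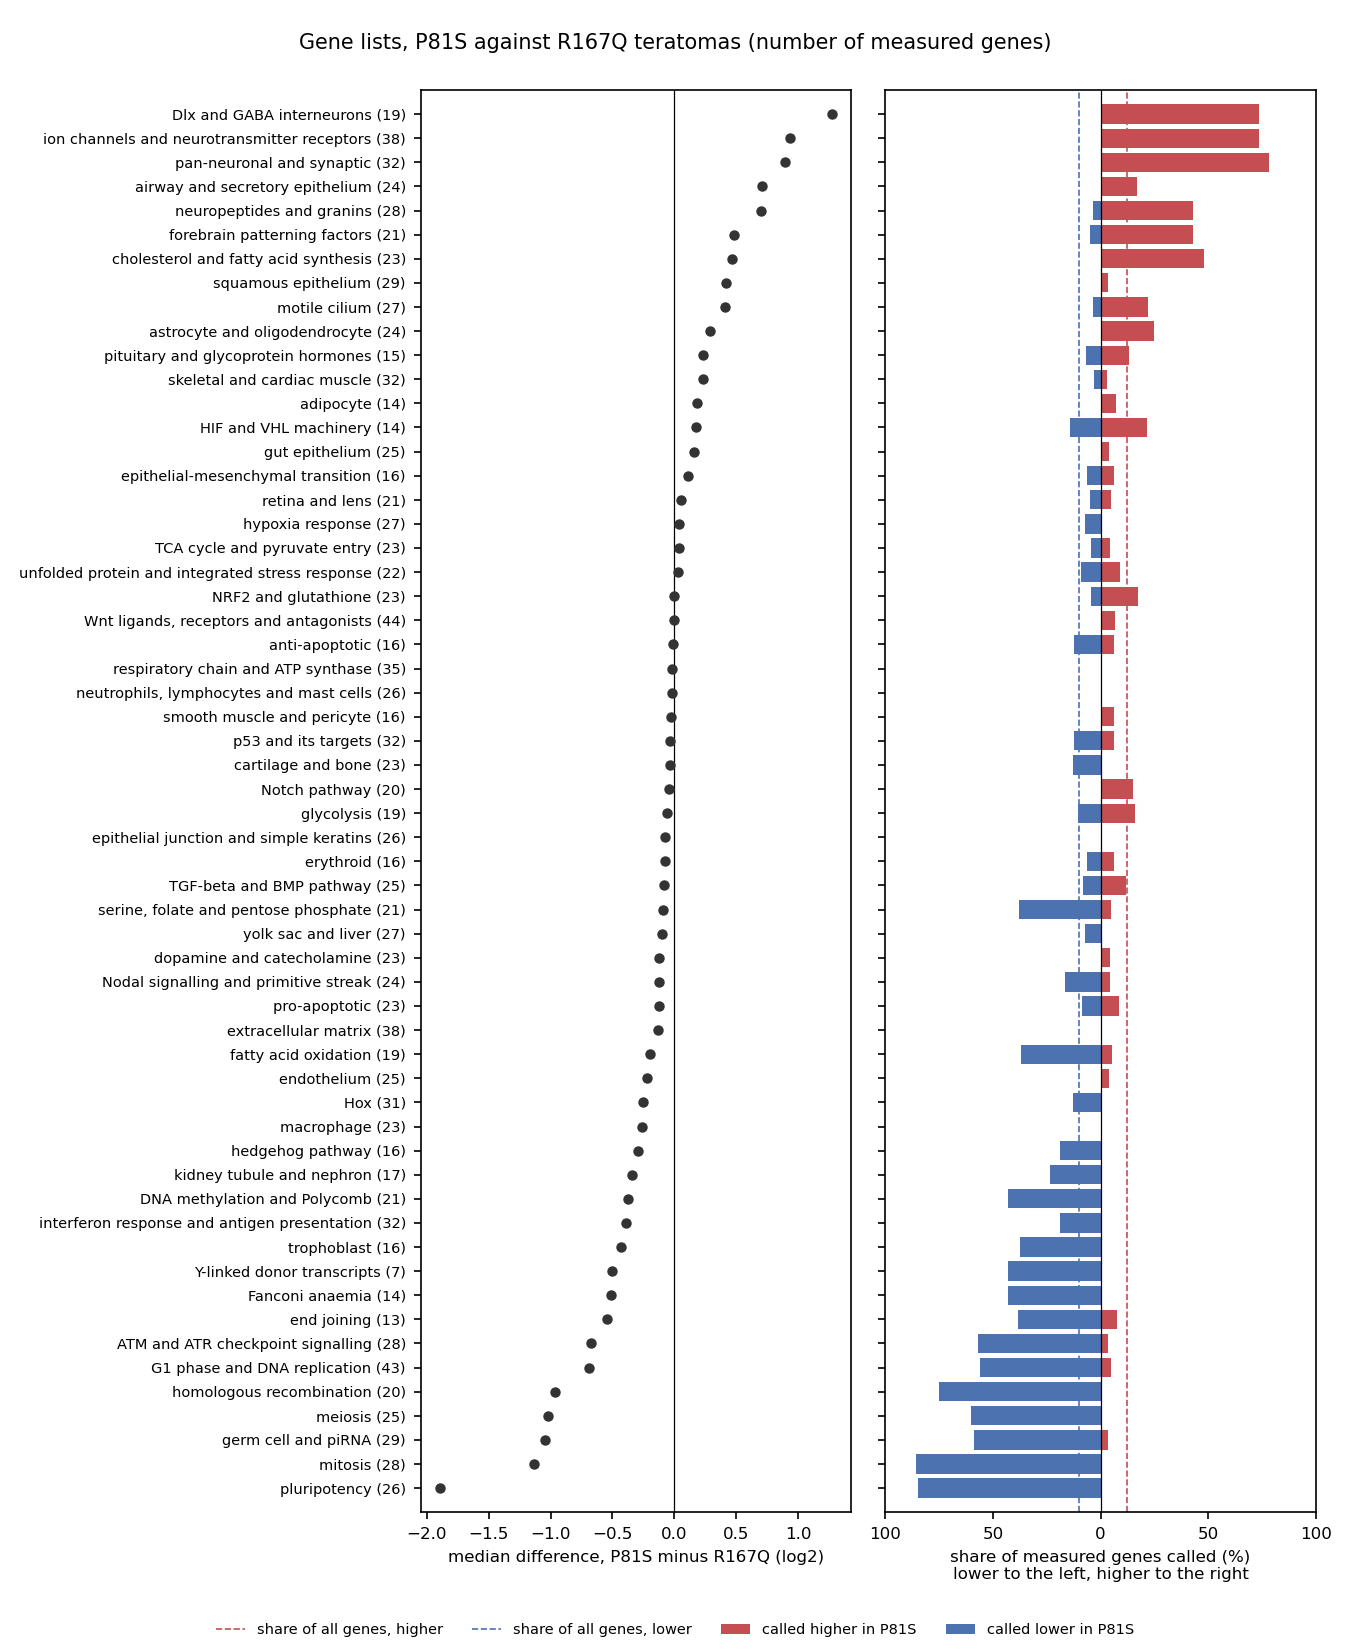
Median log2 difference (left) and share of measured genes called higher or lower in P81S (right, in %) for the 58 gene lists with at least 7 measured genes, ordered by median. Dashed lines mark the shares of all genes, 12.4% higher and 10.1% lower; pluripotency lies lowest at -1.89 log2 and the Dlx and GABA interneuron list highest at 1.27 log2.

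Mouse Vhl, the targeted gene, gave 8.49, 8.78, 8.53 and 8.90 log2 in P81S replicates 1 to 4 and 6.83, 6.93 and 7.21 log2 in R167Q replicates 1 to 3. The groups did not overlap, and R167Q lay at the wildtype level of 6.91 ± 0.05 log2 (SD, n = 3). The P81S value was 3.21-fold higher (1.68 ± 0.15, adjusted p = 0.000333). The exons of mouse Vhl that were disrupted are not given in the sources used here, nor is it given whether the probes bind the human cDNA, so the value checks nothing about the labels.

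Among called genes whose arrays did not overlap, the largest rise was that of Cga, which encodes the alpha subunit shared by the glycoprotein hormones. It gave 9.25, 7.97, 8.70 and 11.33 log2 in P81S against 5.68, 5.28 and 5.66 log2 in R167Q. All 4 P81S arrays lay far above the other 6, replicate 4 highest, and the rise was 13.7-fold with replicate 4 and 8.60-fold without it (3.78 ± 0.60, adjusted p = 0.00177). Dlx1, a homeobox factor of GABA-producing interneurons, rose 6.87-fold (2.78 ± 0.36, adjusted p = 0.000842) from 6.97, 7.54 and 6.46 log2 in R167Q to 9.93, 10.20, 8.91 and 10.05 log2 in P81S. Its relatives Dlx5 and Dlx2 rose 5.21-fold and 4.54-fold. Nkx2-1, a homeobox factor of the ventral forebrain, thyroid and lung, rose 5.51-fold (2.46 ± 0.49, adjusted p = 0.00487), with P81S replicates 1 and 2 at 9.23 and 9.35 log2, replicates 3 and 4 at 7.11 and 7.89, and R167Q at 6.20, 5.90 and 5.71. The order of those P81S arrays recurred in Fezf2, a factor of deep-layer cortical neurons, which gave 8.80, 8.95, 7.0 and 7.36 log2 in P81S and 5.81, 6.16 and 5.72 log2 in R167Q (4.38-fold).

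The rest of the 15 largest rises were smaller. Barhl2, a homeobox factor of neurons, rose 4.06-fold, the cation channel gene Trpc5 4.04-fold, the neurotensin receptor gene Ntsr2 4.02-fold, Gad1, which makes GABA from glutamate, 3.83-fold and the muscarinic receptor gene Chrm3 3.74-fold. Chrm3 spanned 8.84 to 9.09 log2 in P81S, a narrow range, against 6.55, 7.56 and 7.04 log2 in R167Q. Gm10419 and Tmem91 rose 3.73-fold and 3.64-fold. Outside the nervous system, Bpifa1, a secreted protein of the airway lining, rose 7.89-fold, or 5.09-fold without P81S replicate 1, in which it was 12.27 log2 against 8.96 to 10.33 log2 in the other 3 arrays. Its call ended without R167Q replicate 1. Reg3g, an antimicrobial lectin of mucosal surfaces, rose 4.37-fold, and its call ended without P81S replicate 3 or R167Q replicate 1 or 2.

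Among the same genes, the largest fall was that of Asz1, a mitochondrial protein of the piRNA pathway on chromosome 6. It gave 4.64, 5.33, 4.58 and 4.18 log2 in P81S against 9.06, 8.12 and 9.61 log2 in R167Q and 9.84 ± 0.57 log2 (SD, n = 3) in wildtype. The fall was 19.0-fold (-4.25 ± 0.38, adjusted p = 0.000333), and the P81S values lay under the median of the array's control block, 5.98 log2, which is not a measured background. Dazl, on chromosome 17, which germ cells need to translate their mRNAs, gave 6.28, 7.97, 7.09 and 5.49 log2 in P81S against 11.06, 10.36 and 10.64 log2 in R167Q (15.8-fold lower, -3.98 ± 0.45, adjusted p = 0.00059). Usp26, an X-linked deubiquitinase gene of the testis, was 15.2-fold lower and Meioc, which sustains meiotic prophase, 9.41-fold lower. The stem cell genes Dppa5a, Dppa3, Dppa2 and Fbxo15 were 9.63-fold, 9.32-fold, 9.16-fold and 9.5-fold lower.

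P81S replicate 4 weighed on several of these folds. Without it the fall of the zinc finger gene Zfp640 moved from 17.2-fold to 11-fold, that of Gm10324 from 12.9-fold to 8.54-fold, that of Zfp980 from 10.6-fold to 6.30-fold and that of Dppa5a from 9.63-fold to 5.82-fold. Zinc finger relatives of this kind can share probe signal, which cannot be separated without the probes' sequences. The other genes among the 15 largest falls were 1700018B24Rik (16.1-fold lower), Ccdc152 (9.79-fold), Tktl1, a transketolase-like gene (9.41-fold), and Nlrp4c, an oocyte gene of the NLRP family (8.56-fold).

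**Figure D2:**
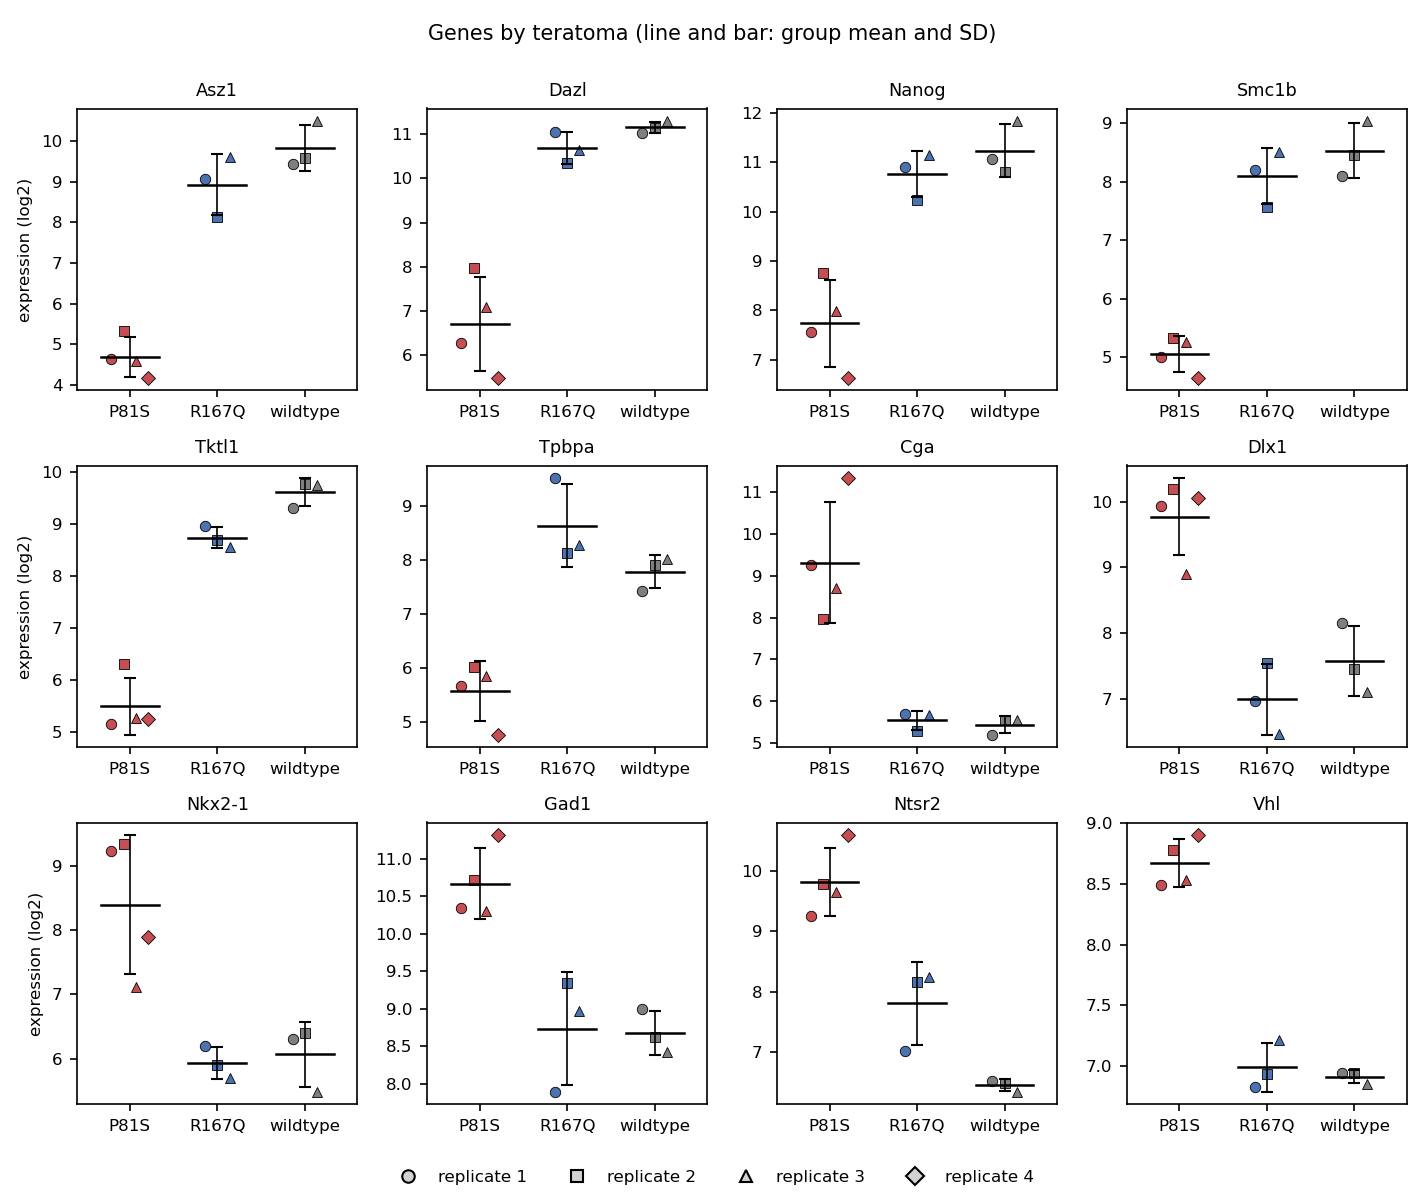
Expression (log2) of 12 genes in each teratoma by VHL form, with the group mean (line) and SD (bar). Asz1, Dazl, Nanog, Smc1b, Tktl1 and Tpbpa lie lower in all 4 P81S arrays than in all 3 R167Q arrays, and Cga, Dlx1, Nkx2-1, Gad1, Ntsr2 and Vhl lie higher.

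Most pluripotency genes, which keep stem cells undifferentiated, were lower in P81S. Of 26 measured members 22 fell and 0 rose (Klf4, Klf5, Lin28b and Tbx3 did not pass, with differences of -0.12, -0.11, -0.31 and 0.64 log2), and the median difference was -1.89 log2 against 0.02 log2 over all genes. The list's mean was 7.62, 7.95, 7.36 and 6.66 log2 in P81S replicates 1 to 4 and 9.36, 8.70 and 9.57 log2 in R167Q replicates 1 to 3. The groups did not overlap, and wildtype lay at 9.71 ± 0.40 log2 (SD, n = 3). Nanog, a homeobox factor of the naive state, gave 7.57, 8.76, 7.99 and 6.64 log2 in P81S and 10.91, 10.25 and 11.15 log2 in R167Q (8.15-fold lower, -3.03 ± 0.43, adjusted p = 0.00116). Zfp42, a zinc finger marker of embryonic stem cells, fell 7.20-fold and Dppa4, a chromatin factor of the same cells, 5.34-fold. Pou5f1, the central regulator of the list and named after its values were seen, fell 6.64-fold, while Sox2, which neural progenitors express as well, fell 1.33-fold, a call that ended without R167Q replicate 1.

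Nodal signalling is a TGF-beta branch active in pluripotent cells and the primitive streak. Among 24 measured genes 4 fell (16.7% against 10.1% of all genes) and 1 rose (4.17% against 12.4%), with a median of -0.12 log2. The 4 that fell were the ligand gene Nodal (3.73-fold), its inhibitors Lefty1 (7.80-fold) and Lefty2 (5.63-fold), and Foxh1, the DNA-binding partner of the pathway's SMADs (4.30-fold). Lefty1 gave 7.30, 7.68, 7.22 and 5.20 log2 in P81S and 9.54, 9.61 and 10.29 log2 in R167Q, without overlap.

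Germ cell and piRNA genes fell with the pluripotency genes. The piRNA pathway silences transposons in germ cells with small RNAs and PIWI proteins. Of 29 measured genes 17 fell and 1 rose, with a median of -1.05 log2. Tex14, which keeps bridges between germ cells open, fell 7.31-fold (-2.87 ± 0.25, adjusted p = 0.000333), from 8.40, 7.68 and 8.29 log2 in R167Q to 5.06, 5.09, 5.78 and 5.08 log2 in P81S. Tex19.1, a germline gene that restrains transposons, fell 5.55-fold and Mov10l1, a helicase of piRNA production, 3.46-fold. Calls in this list were steady in number, 16 or 17 lower whichever single array was left out.

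Meiosis genes moved likewise, 15 of 25 lower and 0 higher with a median of -1.02 log2. Smc1b, a cohesin subunit of meiosis, gave 5.0, 5.32, 5.26 and 4.65 log2 in P81S and 8.21, 7.57 and 8.5 log2 in R167Q (8.17-fold lower, -3.03 ± 0.28, adjusted p = 0.000333). Sycp1 and Syce1, of the synaptonemal complex that holds paired chromosomes, fell 5.68-fold and 4.50-fold, and Tex11, an X-linked crossover gene, 2.79-fold. For P81S the mean of the list was 5.86 ± 0.18 log2 (SD, n = 4), for R167Q 7.09 ± 0.16 and for wildtype 7.54 ± 0.15 (SD, n = 3 for both).

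Promoter windows of these genes are shown because the meiosis and germ cell genes moved together. RefSeq windows of assembly GRCm38.p6, each 250 bases before to 50 after the start site, matched 14749 of the 18820 genes. The E-box CACGTG, a site of factors such as MYC and MAX, was present on either strand in 7 of 20 meiosis windows (35.0%), in 8 of 26 germ cell and piRNA windows (30.8%) and in 9.57% of all windows. The E2F site TTCCCGC, or its complement GCGGGAA, was present in 8 of 20 meiosis windows (40.0%), in 4 of 26 germ cell windows (15.4%) and in 7.44% of all. A match is a stretch of letters and not a measured binding site. The stretches below run 5′ to 3′ on the gene's strand and end at or before the start site, with the motif in capitals, for Sycp1 and Mov10l1 (E-box) and for Smc1b, Tex14, Meioc and Sycp3 (E2F site).
Sycp1, chr3:102936164-102936219, minus strand: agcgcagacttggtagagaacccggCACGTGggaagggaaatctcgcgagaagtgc
Mov10l1, chr15:88982744-88982778, plus strand: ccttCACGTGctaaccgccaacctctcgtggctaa
Smc1b, chr15:85131974-85132030, minus strand: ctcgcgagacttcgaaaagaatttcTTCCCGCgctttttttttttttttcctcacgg
Tex14, chr11:87404928-87404984, plus strand: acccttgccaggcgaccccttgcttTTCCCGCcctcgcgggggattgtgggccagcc
Meioc, chr11:102665335-102665388, plus strand: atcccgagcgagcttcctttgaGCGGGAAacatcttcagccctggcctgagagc
Sycp3, chr10:88459415-88459471, plus strand: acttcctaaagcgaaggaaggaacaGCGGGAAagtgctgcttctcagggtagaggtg

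Among the 14 meiosis genes called lower that had a window, 6 held the E-box and 6 the E2F site, and among the 6 that did not pass 1 and 2 did. Among germ cell and piRNA genes the E-box stood in 4 of the 15 called lower and in 4 of the 10 that did not pass, and the E2F site in 4 of 15 and 0 of 10. These numbers are too small for an order between called and other genes. Sycp3, a core protein of the chromosome axis in meiosis and named for its sequence, read 5.67, 5.78, 5.0 and 4.43 log2 in P81S against 7.23, 7.38 and 7.74 log2 in R167Q (4.68-fold lower).

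Genes of DNA methylation and Polycomb, which hold genes silent through DNA and histone marks, were lower in part. Of 21 measured 9 fell and 0 rose. Dnmt3l, the cofactor of the de novo DNA methyltransferases, fell 6.32-fold. The Polycomb subunits Cbx7, Suz12 and Eed fell 2.68-fold, 1.91-fold and 1.85-fold. Suz12 gave 10.48, 10.57, 10.86 and 10.44 log2 in P81S and 11.69, 11.33 and 11.55 log2 in R167Q, so that all arrays of P81S lay lower.

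Cell division genes were lower in P81S than in R167Q. Of 28 mitosis genes 24 fell and 0 rose, with a median of -1.13 log2. Averaged over the list, expression was 8.88, 9.0, 8.43 and 7.72 log2 in P81S and 9.78, 9.5 and 9.57 log2 in R167Q, and P81S replicate 4 was lowest. Pttg1, which encodes securin, fell 1.94-fold (-0.96 ± 0.12, adjusted p = 0.000798), Aurkb, a kinase of chromosome segregation, 2.17-fold and Top2a, the topoisomerase that untangles chromosomes, 2.67-fold. The number of mitosis calls moved to 9 lower without R167Q replicate 1 and to 13 without R167Q replicate 3, while the median stayed between -1.29 and -0.88 log2 in every omission of 1 array. Mki67, a common mark of dividing cells outside these rules, gave 10.71, 10.41, 9.94 and 9.31 log2 in P81S and 11.08, 10.74 and 10.63 log2 in R167Q and did not pass (adjusted p = 0.0868).

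Genes of the G1 phase and DNA replication fell in 24 of 43 cases and rose in 2, with a median of -0.69 log2. Pole, the catalytic subunit of the leading-strand polymerase, fell 3.23-fold, Mcm6 of the replicative helicase 2.53-fold, Prim1, the primase, 1.99-fold and E2f1, a factor that switches on replication genes, 1.92-fold. E2f1 gave 8.03, 8.19, 7.87 and 7.82 log2 in P81S and 9.06, 8.70 and 9.0 log2 in R167Q. Without R167Q replicate 1 the list had 14 lower calls and 0 higher. The E2F site was present in 14 of 33 replication windows (42.4%), against 7.44% of all windows and 0 of 25 mitosis windows. It stood in 10 of the 19 windows of genes called lower and in 4 of the 12 that did not pass. Prim1 is shown as the named example, again with the motif in capitals.
Prim1, chr10:128015175-128015214, plus strand: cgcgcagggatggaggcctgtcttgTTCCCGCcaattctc

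DNA damage genes, a subject of the series title, were lower in P81S in the same arrays as the pluripotency and mitosis genes. The ATM and ATR kinases sense breaks and stalled forks and signal through the checkpoint kinases. Of 28 measured genes of this signalling 16 fell and 1 rose, with a median of -0.67 log2. Rad50, part of the complex that recruits ATM to breaks, gave 8.69, 8.46, 8.74 and 8.40 log2 in P81S and 10.06, 9.68 and 9.92 log2 in R167Q (2.48-fold lower, -1.31 ± 0.16, adjusted p = 0.000715). Tipin, a fork protection gene, fell 2.41-fold, Atr 2.01-fold and Chek2 1.79-fold. Atm itself, named for the title, gave 8.10, 8.21, 8.04 and 7.80 log2 in P81S and 9.07, 8.56 and 8.86 log2 in R167Q (1.73-fold lower, adjusted p = 0.00794). Without R167Q replicate 1 the list had 9 lower calls. Whether the share of pluripotent or dividing cells accounts for these values was not tested; the pluripotency mean lay at 7.40 ± 0.55 log2 in P81S (SD, n = 4) and at 9.21 ± 0.45 log2 in R167Q (SD, n = 3).

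Repair pathways behind the checkpoint behaved alike in direction. Homologous recombination, which copies an intact strand, had 15 of 20 genes lower and 0 higher, with a median of -0.96 log2. Brca1 fell 3.02-fold (-1.59 ± 0.24, adjusted p = 0.00132), the nuclease subunit gene Eme1 2.63-fold, Rad54l 2.25-fold and Rpa1, which coats single strands, 1.75-fold. Fanconi anaemia genes, which clear crosslinks, had 6 of 14 lower and 0 higher, led by the helicase gene Brip1 (3.10-fold lower) and Fancd2 (2.63-fold).

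End joining had 5 of 13 genes lower and 1 higher. Xrcc5, the Ku80 subunit, gave 9.03, 9.06, 8.92 and 8.66 log2 in P81S and 9.79, 9.91 and 9.69 log2 in R167Q (1.84-fold lower), Lig3 fell 1.70-fold and Prkdc 1.59-fold. Paxx, a partner of Ku, rose 1.68-fold. The count of lower calls ran from 2 without R167Q replicate 1 and 3 without P81S replicate 3, P81S replicate 4 or R167Q replicate 3, and was 3 with median centring. Brca1, Brip1, Eme1, Rad50, Rpa1 and Lig3 lie on chromosome 11, whose genes were lower in P81S replicates 1 and 2; in replicates 3 and 4 Brca1 gave 7.80 and 7.11 log2 and Brip1 7.01 and 6.42 log2, below all R167Q arrays. The mitosis genes Pttg1, Aurkb and Top2a and the anti-apoptotic gene Birc5 lie there too, and each was lower in P81S replicates 3 and 4 than in any R167Q array. The same holds for Suz12, Tex14, Tex19.1, Meioc, Hoxb1, Shmt1, Slc16a3 and Myl7, named in other paragraphs. Hoxb2 lies there as well, but P81S replicate 3, at 9.05 log2, was above R167Q replicate 1, at 8.90 log2.

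**Figure D3:**
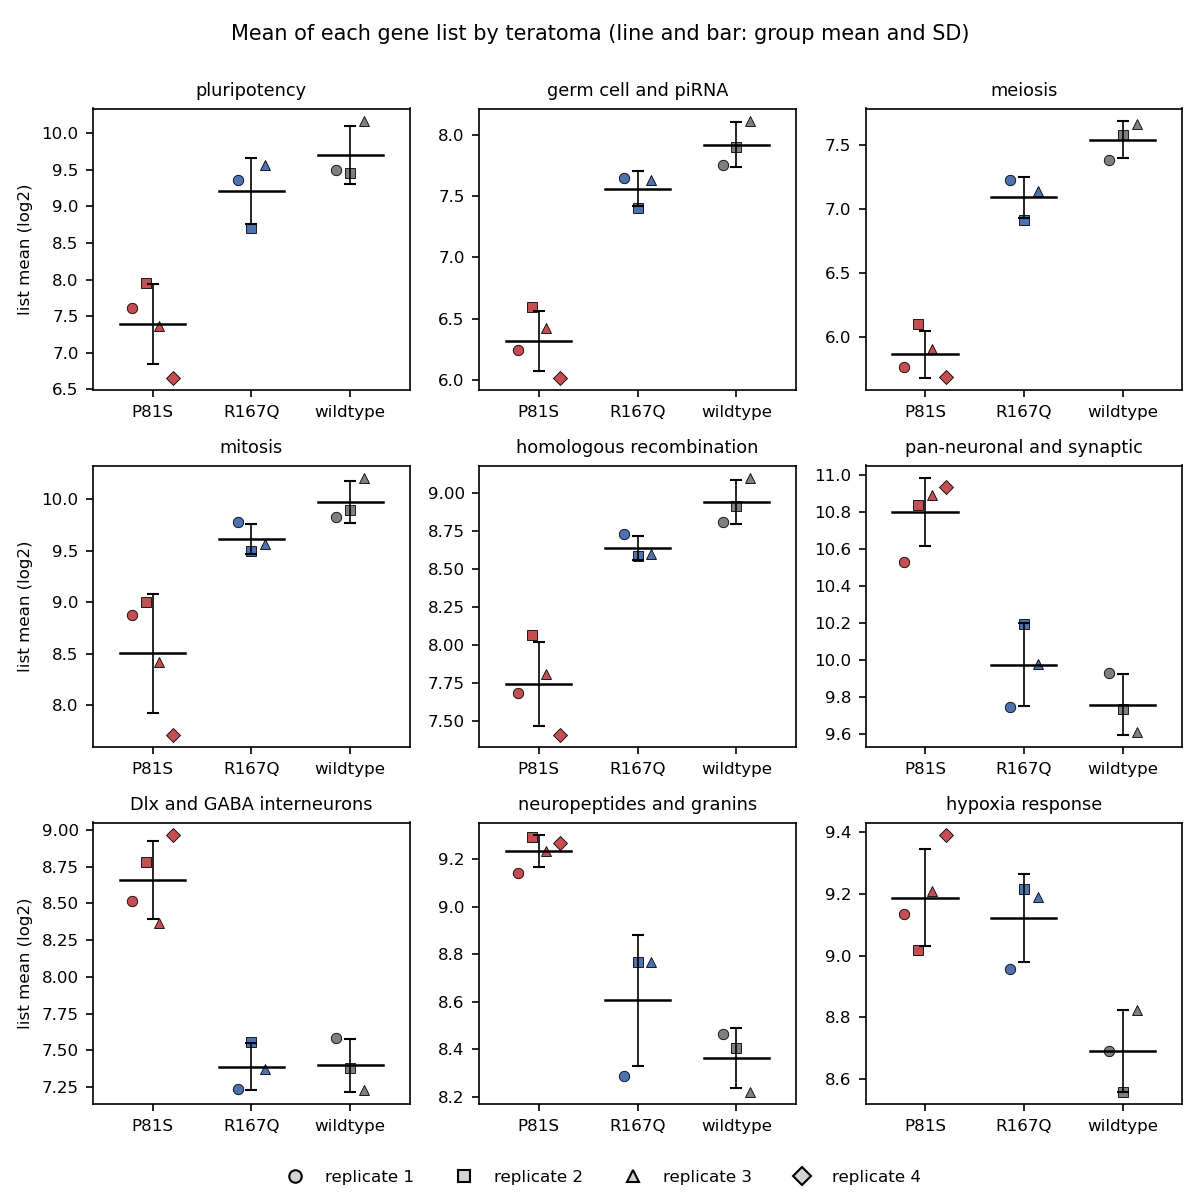
Mean log2 expression of 9 gene lists in each teratoma by VHL form, with the group mean (line) and SD (bar). Pluripotency, germ cell, meiosis, mitosis and homologous recombination means lie lower in all P81S arrays than in all R167Q arrays, the neural means lie higher, and the hypoxia response means of the mutants overlap.

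Neuronal genes were higher in P81S. Of 32 pan-neuronal and synaptic genes 25 rose and 0 fell, with a median of 0.90 log2. The list's mean was 10.53, 10.84, 10.89 and 10.93 log2 in P81S, 9.75, 10.19 and 9.98 log2 in R167Q and 9.76 ± 0.16 log2 (SD, n = 3) in wildtype. Syn1, which tethers synaptic vesicles, spanned 11.03 to 11.14 log2 in P81S against 9.39, 10.09 and 9.97 log2 in R167Q (2.45-fold higher, 1.29 ± 0.15, adjusted p = 0.000583). Sv2a, a vesicle glycoprotein gene, rose 2.54-fold, Slc17a6, the vesicular glutamate transporter of excitatory neurons, 2.46-fold and Stx1a, a fusion protein of the presynapse, 2.15-fold. Every omission of a single array left 20 to 25 higher calls.

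Ion channel and receptor genes of neurons rose in 28 of 38 cases and fell in 0, with a median of 0.93 log2. Scn2a, a sodium channel of axons, gave 12.11, 12.08, 12.31 and 12.45 log2 in P81S and 10.92, 11.39 and 11.28 log2 in R167Q (2.06-fold higher). The NMDA receptor subunit gene Grin2b rose 2.67-fold and the potassium channel gene Kcnq3 2.05-fold. R167Q replicate 1 was the lowest of the 3 R167Q arrays in each of these 3 genes, and without it 18 genes were called higher. Glial genes moved less, with 6 of 24 higher and 0 lower and a median of 0.29 log2. The astrocyte glutamate transporter gene Slc1a2 rose 2.69-fold, Bcan, a matrix protein of brain, 2.20-fold and Ptprz1, a phosphatase of glial precursors, 1.42-fold. Only 2 glial calls were left without R167Q replicate 3, and 3 without R167Q replicate 1. Gfap, the defining astrocyte filament, gave 12.21, 12.11, 12.67 and 13.24 log2 in P81S and 10.79, 12.36 and 12.07 log2 in R167Q and did not pass (adjusted p = 0.123).

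Interneuron genes of the ventral forebrain had the highest median of the lists, 1.27 log2. DLX factors drive GABA neurons from that region, and of 19 measured genes 14 rose and 0 fell. The mean of the list was 8.52, 8.78, 8.37 and 8.96 log2 in P81S, 7.24, 7.56 and 7.37 log2 in R167Q and 7.40 ± 0.18 log2 (SD, n = 3) in wildtype, so that R167Q lay with wildtype. Dlx6 rose 3.52-fold (1.82 ± 0.20, adjusted p = 0.000583) and Calb2, the interneuron protein calretinin, 3.10-fold, from 9.98, 10.43 and 10.11 log2 to 11.53, 11.94, 12.01 and 11.74 log2.

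Forebrain patterning factors rose in 9 of 21 cases and fell in 1. Emx2, a homeobox factor of the cortex, rose 3.54-fold, Six3, of the anterior neural plate, 3.18-fold and Tbr1, of deep-layer cortical neurons, 3.01-fold. Six3 gave 7.87, 7.59, 6.72 and 7.40 log2 in P81S, 5.66, 5.63 and 5.88 log2 in R167Q and 6.07 ± 0.17 log2 (SD, n = 3) in wildtype. Averaged over the list, expression was 8.28 log2 in P81S replicates 1 and 2 alike, 7.54 and 7.68 log2 in replicates 3 and 4, and 7.26, 7.43 and 7.17 log2 in R167Q. Without P81S replicates 1 and 2 the list had 5 higher and 4 lower calls, and without R167Q replicate 1 it had 5 higher. The member that fell, Hesx1, an early repressor of the anterior head, was 1.9-fold lower.

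Neuropeptide and granin genes, which supply dense-core vesicles, rose in 12 of 28 cases and fell in 1, with a median of 0.70 log2. Vgf, a peptide precursor of neurons, gave 10.07, 9.78, 9.78 and 9.77 log2 in P81S and 7.70, 8.0 and 8.99 log2 in R167Q (3.08-fold higher, 1.62 ± 0.26, adjusted p = 0.00186). Chga, a granin, rose 2.14-fold, Cpe, which trims peptide precursors, 2.03-fold and Adcyap1, the precursor of the peptide PACAP, 1.85-fold. The cAMP response element TGACGTCA, the full site of CREB, was present in 5 of 23 windows of the list (21.7%) and in 2.77% of all windows, in 2 of the 10 genes called higher and 3 of the 12 that did not pass. The 2 called genes are shown. Scg2, a granin, rose 1.61-fold, and Pcsk1, a peptide-cleaving convertase, 1.74-fold, a call that ended without P81S replicate 1 or 2 or R167Q replicate 1 or 2.
Scg2, chr1:79440062-79440119, minus strand: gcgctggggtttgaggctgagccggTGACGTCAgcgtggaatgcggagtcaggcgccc
Pcsk1, chr13:75089754-75089811, plus strand: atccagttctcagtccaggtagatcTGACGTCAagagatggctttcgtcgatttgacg

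The dopamine, pituitary and retina lists had 4.35%, 13.3% and 4.76% of their genes called higher, against 12.4% of all genes. Of 23 dopamine and catecholamine genes only Nr4a2, a factor of midbrain dopamine neurons, passed (1.85-fold higher), a call that ended without R167Q replicate 3. Both mutants lay above wildtype in this gene, at 11.88 ± 0.36 log2 (SD, n = 4) in P81S, 10.99 ± 0.42 in R167Q and 9.15 ± 0.24 in wildtype (SD, n = 3 each). Th, the rate-limiting enzyme of dopamine synthesis, gave 10.83, 11.10, 10.54 and 9.71 log2 in P81S and 10.76, 10.94 and 10.78 log2 in R167Q and did not pass (adjusted p = 0.52). Of 15 pituitary genes Cga and Prl rose and Hesx1 fell. The mean of that list did not overlap, at 6.21, 5.81, 5.84 and 6.21 log2 in P81S and 5.62, 5.56 and 5.58 log2 in R167Q. Prl, prolactin and a member of a multigene family, was dim at 4.40 to 4.99 log2 in P81S and 4.10 to 4.36 log2 in R167Q, and its call ended without R167Q replicate 1 or 3. Without P81S replicate 2 the list had 5 higher calls. Lhb, the beta subunit of luteinizing hormone, gave 7.57, 6.82, 7.22 and 7.17 log2 in P81S and 6.85, 6.67 and 6.53 log2 in R167Q (adjusted p = 0.075). In the retina and lens list Six6, an eye and hypothalamus factor, rose 2.82-fold with P81S replicates 1 and 2 at 9.16 and 8.53 log2 and replicates 3 and 4 at 6.82 and 7.33, and its call ended without any array other than replicates 3 and 4. Mitf, of pigment cells, fell 1.60-fold, a call that ended without R167Q replicate 3.

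Hypoxia targets, the classical readout of VHL, did not separate the mutants as a list. Among 27 measured genes 2 fell (7.41% against 10.1% of all genes) and 0 rose, with a median of 0.04 log2. Without P81S replicate 1 the list had 3 higher and 3 lower calls, and with median centring 2 higher and 1 lower. The list's mean was 9.14, 9.02, 9.21 and 9.39 log2 in P81S, 8.96, 9.22 and 9.19 log2 in R167Q and 8.69, 8.56 and 8.82 log2 in wildtype, so the mutants overlapped and each of their arrays lay above all wildtype arrays. With all arrays the 2 genes that fell were Pdk1, which diverts pyruvate from mitochondria (1.5-fold, -0.58 ± 0.09, adjusted p = 0.00173), and Slc2a1, the glucose transporter GLUT1 (1.31-fold, adjusted p = 0.0186). Pdk1 spanned 9.56 to 9.62 log2 in P81S and 10.12 to 10.24 log2 in R167Q, and the Slc2a1 call ended without P81S replicate 3 or R167Q replicate 1. The oxygen sensor gene Egln1 gave 10.56, 10.80, 10.81 and 10.83 log2 in P81S and 10.21, 10.61 and 10.32 log2 in R167Q, and the demethylase gene Kdm3a 9.79, 10.21, 10.12 and 9.71 against 10.45, 10.28 and 10.39 log2; neither passed (adjusted p = 0.0633 and 0.0621). Vegfa and Car9, outside the naming rule, differed by 0.43 ± 0.22 and 0.81 ± 0.41 log2 and did not pass either.

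The core of the hypoxia response element, ACGTG, was present in 15 of 23 windows of that list (65.2%) and in 24.6% of all windows; every E-box CACGTG contains it. Slc2a1, 1 of the 2 genes that fell, is shown with its nearest match before the start site in capitals.
Slc2a1, chr4:119108684-119108738, plus strand: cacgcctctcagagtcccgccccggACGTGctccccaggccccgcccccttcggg

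The HIF and VHL machinery had 3 of 14 genes higher (21.4%) and 2 lower (14.3%), against 12.4% and 10.1% of all genes. The higher genes included Vhl itself, the targeted gene described above, so the higher share rests in part on it. Arnt2, the neuronal partner of HIF subunits, rose 1.74-fold (0.80 ± 0.13, adjusted p = 0.00186) while Arnt, its general counterpart, was 1.34-fold lower, a call that ended without 7 of the 10 arrays. Elob, an adaptor of the VHL ligase, rose 1.2-fold, a call that ended without R167Q replicate 1. Hif1an, the asparagine hydroxylase of HIF, fell 1.24-fold, a call that ended without any array other than P81S replicate 1. With median centring the list had 5 higher and 0 lower calls.

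Of 19 glycolysis genes 3 rose and 2 fell, shares of 15.8% and 10.5% that lie near the 12.4% and 10.1% of all genes. Eno2, the enolase of neurons, rose 3.01-fold (1.59 ± 0.28, adjusted p = 0.00305), and Hk1 and Pfkm, forms abundant in brain and muscle, rose 1.61-fold each. Slc16a3, a lactate exporter, gave 9.79, 9.84, 10.25 and 10.10 log2 in P81S and 10.97, 10.86 and 10.85 log2 in R167Q (1.86-fold lower). In the TCA cycle 1 of 23 genes rose and 1 fell (4.35% each way). The latter was Suclg2, of succinyl-CoA synthetase, at 1.63-fold lower.

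None of 35 respiratory chain and ATP synthase genes passed, with a median of -0.02 log2. Both mutants averaged 10.91 log2 over that list, with an SD of 0.07 in P81S (n = 4) and 0.05 in R167Q (n = 3), and wildtype 11.04 ± 0.05 (SD, n = 3). Its smallest p belonged to Uqcrc1, with 11.63, 11.41, 11.51 and 11.58 log2 in P81S and 11.35, 11.38 and 11.39 log2 in R167Q (adjusted p = 0.13). Fatty acid oxidation had 7 of 19 genes lower (36.8% against 10.1% of all genes) and 1 higher, with a median of -0.19 log2 and list means that overlapped. The lower count moved to 2 lower with median centring or without R167Q replicate 1, and to 4 without P81S replicate 2 or 3, R167Q replicate 2 or wildtype replicate 2. Etfa, an electron carrier, fell 1.44-fold and Acads, the short-chain dehydrogenase, 1.54-fold. The member that rose, Ppargc1a, a coactivator of mitochondrial genes that neurons also express, gave 10.33, 10.54, 10.50 and 10.72 log2 in P81S and 8.72, 9.79 and 9.26 log2 in R167Q (2.40-fold higher).

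Cholesterol and fatty acid synthesis genes rose in 11 of 23 cases and fell in 0, with a median of 0.46 log2. Scd1, a fatty acid desaturase, gave 11.73, 11.69, 11.07 and 11.18 log2 in P81S and 10.57, 10.23 and 10.48 log2 in R167Q (1.99-fold higher, 0.99 ± 0.16, adjusted p = 0.00209). Fads1 and Fads2, which make long unsaturated fatty acids, rose 1.47-fold and 1.49-fold, and Scd2, the desaturase of brain, 1.28-fold. List means were 10.38, 10.58, 10.42 and 10.07 log2 in P81S and 9.93, 10.08 and 9.81 log2 in R167Q, so that P81S replicate 4 lay just below R167Q replicate 2. The count was 7 without P81S replicate 2 or 3, 5 without R167Q replicate 1 and 6 without R167Q replicate 3. Neural list means were higher in the same arrays, and their part in this was not tested.

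Serine, folate and pentose phosphate genes fell in 8 of 21 cases and rose in 1, with 12 not passing and a median of -0.09 log2. Tktl1, X-linked and related to the transketolase of the pentose phosphate pathway, gave 5.16, 6.31, 5.27 and 5.24 log2 in P81S and 8.95, 8.68 and 8.55 log2 in R167Q (9.41-fold lower, -3.23 ± 0.27, adjusted p = 0.000248). Its relative Tktl2 fell 3.53-fold, Shmt1, which links serine to folate, 3.05-fold and Gart, of purine synthesis, 1.61-fold. Tktl1 and Tktl2 share sequence, and signal common to them cannot be separated here.

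Of 23 NRF2 and glutathione genes, which counter oxidants, 4 rose and 1 fell, with a median of 0.00 log2. The shares, 17.4% and 4.35%, compare with 12.4% and 10.1% of all genes, and those of the stress response genes that follow were 9.09% each way. Slc7a11, the cystine importer, gave 10.44, 10.12, 10.39 and 11.20 log2 in P81S and 9.29, 9.51 and 8.70 log2 in R167Q (2.58-fold higher, 1.37 ± 0.25, adjusted p = 0.00312). Gstm1, a glutathione transferase, and Srxn1, which repairs oxidised peroxiredoxins, rose 1.88-fold and 1.81-fold, and Prdx1, a peroxiredoxin, fell 1.44-fold. In the unfolded protein and integrated stress response 2 of 22 genes rose, Chac1, which degrades glutathione (2.14-fold), and Herpud1, of protein degradation at the endoplasmic reticulum (1.57-fold), while Edem1 fell 1.53-fold and Asns, asparagine synthetase, 1.35-fold. The Asns call ended without R167Q replicate 1 or 3.

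Apoptosis genes bear on the phenotype in the labels, and their shares of calls lay near those of all genes. Among 23 pro-apoptotic genes there were 2 that rose and 2 that fell (8.70% each way, against 12.4% and 10.1%), the median was -0.12 log2, and without P81S replicate 1 the lower calls were 6. Tnfrsf10b, a death receptor gene and p53 target, gave 8.34, 7.79, 7.75 and 7.96 log2 in P81S and 9.14, 8.93 and 9.19 log2 in R167Q (2.17-fold lower, -1.12 ± 0.18, adjusted p = 0.0019). Aifm1, a mitochondrial flavoprotein, fell 1.38-fold, and Hrk, a BH3-only protein of neurons, and Dapk1, a death-associated kinase, rose 1.54-fold and 1.26-fold. Each of these 3 calls ended without R167Q replicate 1, and those of Hrk and Dapk1 without several other arrays too, P81S replicate 3 and R167Q replicate 3 among them.

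Of 16 anti-apoptotic genes 1 rose and 2 fell (6.25% and 12.5%), with a median of -0.01 log2. The mean of that list was lower in all P81S arrays, at 8.17, 8.12, 8.06 and 8.13 log2 against 8.27, 8.22 and 8.24 log2 in R167Q. Bcl2l1, which encodes BCL-XL, rose 1.32-fold, from 9.04, 9.31 and 9.35 log2 in R167Q to 9.66, 9.59, 9.57 and 9.73 log2 in P81S, a call that ended without P81S replicate 4 or R167Q replicate 1. Birc5, survivin, which also serves in mitosis, fell 2.79-fold and Bcl2l12 1.36-fold, the latter at an adjusted p of 0.0497, and its call ended without any array other than P81S replicate 2. Mcl1 did not pass (adjusted p = 0.119). Among 32 genes of p53 and its targets 2 rose (6.25%) and 4 fell (12.5%), against 12.4% and 10.1% of all genes. Cdkn1a, the inhibitor p21, rose 1.58-fold with P81S at 11.61 to 11.70 log2 and R167Q at 10.78, 11.22 and 10.95. Trp53inp1 fell 1.5-fold and Eda2r, a receptor gene, 2.02-fold. The direction of these members is mixed with respect to p53 activity.

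In the hedgehog pathway, a signal that patterns many tissues, 3 of 16 genes fell (18.8% against 10.1% of all genes) and 0 rose, with a median of -0.29 log2. The list's values did not overlap, at 8.48, 8.38, 8.26 and 7.95 log2 in P81S and 8.65, 8.68 and 8.49 log2 in R167Q. Shh, the ligand, gave 8.99, 10.30, 9.51 and 8.03 log2 in P81S and 11.31, 10.87 and 10.54 log2 in R167Q (3.26-fold lower, adjusted p = 0.0143), and Ptch1, its receptor and also a target of the pathway, fell 1.53-fold. Disp1, which releases the ligand, fell 1.30-fold, and the target Gli1, at 6.98, 7.15, 6.67 and 6.20 log2 in P81S and 7.34, 7.37 and 7.20 log2 in R167Q, did not pass (adjusted p = 0.08). All 3 calls ended without R167Q replicate 1, and that of Ptch1 also without R167Q replicate 2.

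In the Wnt list 3 of 44 genes rose and 0 fell: Wnt8b, a ligand of the forebrain (2.01-fold), the receptor gene Fzd9 (1.60-fold) and Rspo1, an amplifier of the pathway (1.42-fold). Notch genes gave 3 of 20 higher, the ligand Jag2 (1.45-fold) and the targets Hes5 (1.69-fold) and Hey2 (1.87-fold). The TGF-beta and BMP list had 3 of 25 higher and 2 lower, with Smad1 1.42-fold and Id4 1.54-fold higher and Bmp4 and Smad3 1.53-fold and 1.47-fold lower. The share of higher calls was 6.82% in the Wnt list, under the 12.4% of all genes. In the Notch list and in the TGF-beta and BMP list that share lay near 12.4%. The share of lower calls in the TGF-beta and BMP list lay under the 10.1% of all genes. Of these named Wnt, Notch, TGF-beta and BMP calls, only that of Smad1 stood whichever single array was left out. Without P81S replicates 1 and 2 the lower calls numbered 7 in hedgehog, 8 in Wnt, 5 in Notch and 7 in TGF-beta and BMP. Hox genes, which mark the trunk, had 4 of 31 lower (12.9%, near the 10.1% of all genes) and 0 higher. Hoxb1 was the clearest, with 6.77, 7.44, 7.22 and 6.17 log2 in P81S and 8.43, 8.36 and 8.41 log2 in R167Q (2.83-fold lower), and the calls of Hoxb2, Hoxc9 and Hoxd4 ended under most omissions of a single array.

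Epithelial and connective tissue varied more among P81S tumours than between the mutants. In P81S replicate 1 the list means were 8.90 log2 for squamous epithelium, 9.17 for airway and secretory epithelium, 9.39 for epithelial junctions and 9.95 for extracellular matrix, against 6.20 to 6.70, 6.86 to 7.55, 7.12 to 7.78 and 8.41 to 8.80 log2 in the other P81S arrays. The same means in R167Q were 6.29 to 6.74, 6.28 to 7.51, 7.75 to 8.23 and 8.95 to 9.30 log2. Krt5, a basal keratin, illustrates it with 11.77, 7.34, 8.78 and 7.31 log2 in P81S and 9.20, 7.86 and 7.82 log2 in R167Q (adjusted p = 0.753). Of 26 junction and 38 matrix genes 0 passed in either direction. Without P81S replicate 1, 8 junction genes and 12 matrix genes were called lower, and the medians moved from -0.07 to -0.56 log2 and from -0.13 to -0.54 log2. Epcam, a surface protein of simple epithelium, gave 9.84 log2 in that array, 7.96, 8.06 and 7.14 log2 in the other P81S arrays and 9.10, 8.32 and 9.22 log2 in R167Q.

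Single epithelial genes passed. In the squamous list Lor, the cornified envelope protein loricrin, was the only call of 29, with 8.45, 7.64, 7.83 and 7.99 log2 in P81S and 6.30, 6.75 and 6.75 log2 in R167Q (2.59-fold higher, adjusted p = 0.00132). Airway genes had 4 of 24 higher (16.7% against 12.4% of all genes). They were the 3 already described and Scgb3a2, a dim secretoglobin at 4.49 to 5.64 log2 in P81S. The Scgb3a2 call ended without P81S replicate 3, any R167Q array or any wildtype array. Of 25 gut genes only Chga, shared with neuroendocrine cells, passed.

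Motile cilium genes, of the beating hairs on airway and brain ventricle cells, rose in 6 of 27 cases and fell in 1, with a median of 0.41 log2. The shares were 22.2% higher and 3.7% lower, against 12.4% and 10.1% of all genes. Averaged over the list, expression was 8.77, 7.81, 8.55 and 8.42 log2 in P81S and 8.05, 8.07 and 7.87 log2 in R167Q, P81S replicate 2 lying among the R167Q arrays. Rsph9, of the radial spoke, rose 1.61-fold, Mcidas, which starts the multiciliated programme, 1.83-fold and the tektin gene Tekt2 1.66-fold. Higher calls numbered 12 without P81S replicate 2, 3 without P81S replicate 3, 2 without R167Q replicate 3 and 1 without R167Q replicate 1.

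**Figure D4:**
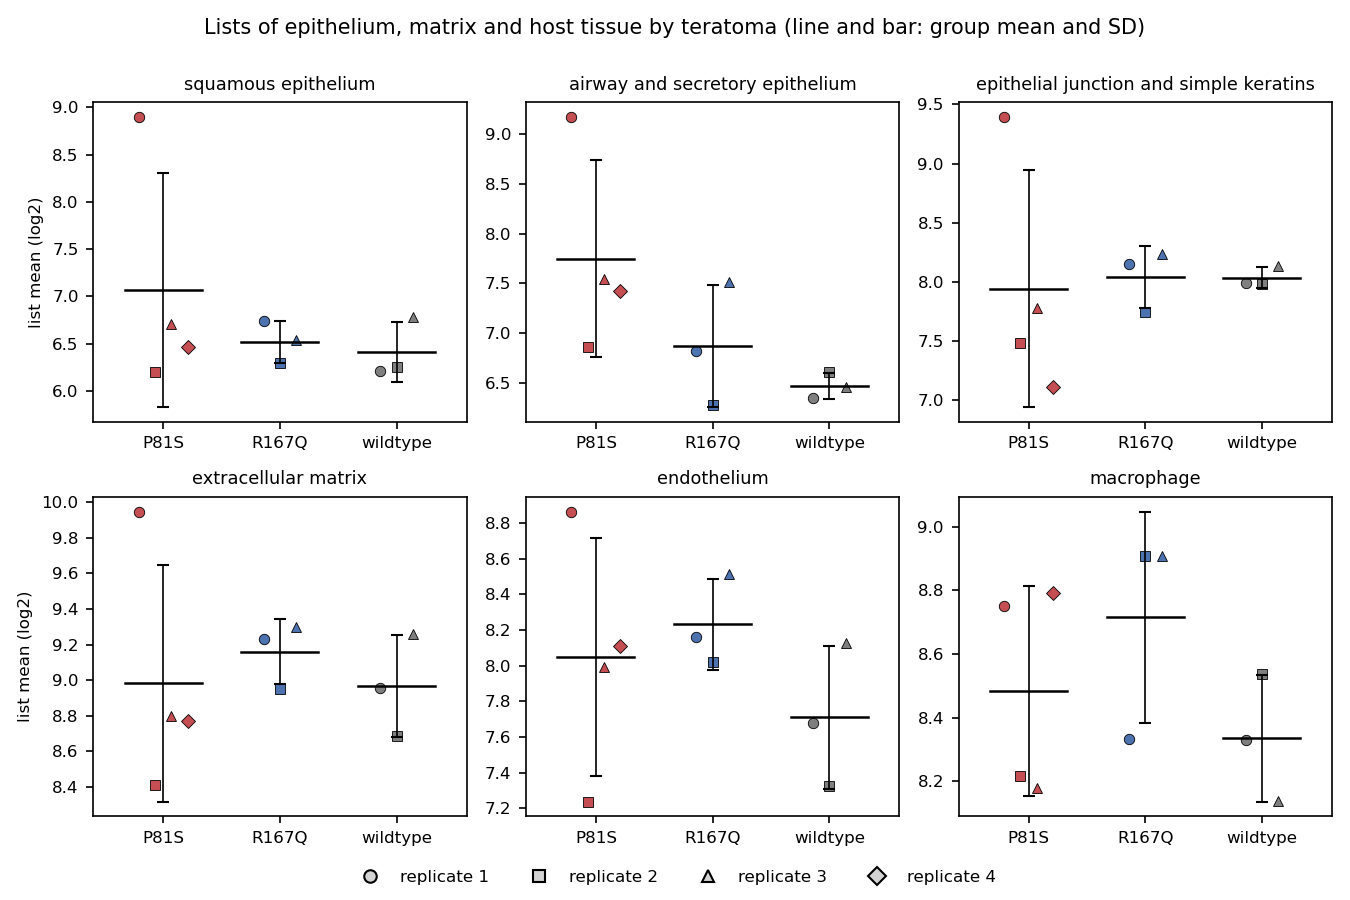
Mean log2 expression of 6 tissue lists in each teratoma by VHL form, with the group mean (line) and SD (bar). P81S replicate 1 (circle) lies above the other P81S arrays in the epithelial, matrix and endothelium lists, and the P81S and R167Q values overlap in all 6 lists.

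Mesodermal tissues gave scattered calls, at shares near or under the 12.4% higher and 10.1% lower of all genes. In cartilage and bone 3 of 23 genes fell (13.0%) and 0 rose. Alpl, a phosphatase of bone that stem cells also express, fell 3.30-fold, Col2a1, the cartilage collagen, 1.74-fold and the cartilage proteoglycan gene Acan 1.73-fold, with the Acan call lost in most omissions of a single array. Skeletal and cardiac muscle had 1 of 32 higher, Mef2c, which neurons also use (1.60-fold, a call lost without P81S replicate 3 or R167Q replicate 1 or 3), and 1 lower, Myl7, an atrial light chain (1.79-fold). That list's mean reached 8.14 log2 in P81S replicate 3 and 8.09 in R167Q replicate 1 and was 6.47 to 7.64 log2 in the other arrays of the mutants. Cnn1, calponin, was the only smooth muscle call of 16 (2.95-fold higher, lost without R167Q replicate 1).

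Of 25 endothelial genes Prox1, which neural cells express too, was the only call, at an adjusted p of 0.0496 that most omissions of a single array ended. Pecam1, a defining endothelial gene, gave 9.39, 7.53, 8.90 and 8.87 log2 in P81S and 9.97, 9.34 and 10.32 log2 in R167Q (adjusted p = 0.0561). Erythroid genes had 1 of 16 higher and 1 lower (6.25% each way, under the 12.4% and 10.1% of all genes). The latter, the embryonic globin gene Hba-x of a multigene family, gave 8.76, 9.67 and 6.08 log2 in R167Q and 5.91 to 6.48 log2 in P81S, so that R167Q replicate 3 lay among the P81S arrays; the fold was 4.19, 2.49 without R167Q replicate 2 and 8.64 without replicate 3, and the call ended without any array other than R167Q replicate 3. Adipocyte genes had 1 of 14 higher, Cidea (2.29-fold).

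Trophoblast genes, of the placental lineage, fell in 6 of 16 cases and rose in 0, with a median of -0.43 log2. Tpbpa, of the spongiotrophoblast, gave 5.68, 6.03, 5.86 and 4.78 log2 in P81S, 9.52, 8.13 and 8.27 log2 in R167Q and 7.79 ± 0.31 log2 (SD, n = 3) in wildtype (8.31-fold lower in P81S, -3.06 ± 0.37, adjusted p = 0.000715). Tfap2c, a factor of trophoblast and germ cells, fell 3.60-fold. The X-linked homeobox genes Rhox9 and Rhox6 fell 7.64-fold and 2.34-fold, with the family's shared sequence leaving the split between them uncertain. Yolk sac and liver genes had 2 of 27 lower (7.41% against 10.1% of all genes). They were Fgb, a fibrinogen chain (2.52-fold), and Rbp4, the retinol carrier (1.80-fold, adjusted p = 0.0497, a call lost without any array other than P81S replicate 1). Kidney genes had 4 of 17 lower (23.5% against 10.1% of all genes). The nephron factor Pax8 gave 6.47, 6.30, 6.70 and 6.67 log2 in P81S and 7.44, 8.05 and 7.46 log2 in R167Q (2.17-fold lower). Wt1 was 1.83-fold lower and the podocyte gene Nphs1 1.88-fold lower. The calls of Wt1 and Nphs1 ended without P81S replicate 3 or 4 or R167Q replicate 1 or 3.

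Host immune cells showed no call. Of 23 macrophage genes and 26 genes of neutrophils, lymphocytes and mast cells 0 passed in either direction. In the limma model the unadjusted p was under 0.05 for 6431 of all genes. The latter list averaged 5.29 log2 in P81S and 5.34 log2 in R167Q, under the control block median of 5.98 log2, so a difference could be missed. The macrophage median was -0.26 log2 and stayed between -0.44 and -0.14 log2 in every omission of 1 array. Lyz2, a macrophage lysozyme, gave 11.66, 10.91, 10.90 and 11.13 log2 in P81S and 11.38, 11.69 and 11.93 log2 in R167Q (adjusted p = 0.102). Interferon genes fell in 6 of 32 cases (18.8% against 10.1% of all genes) and rose in 0. Ddx58, a sensor of viral RNA, gave 8.58, 7.77, 8.04 and 8.44 log2 in P81S and 9.58, 9.45 and 9.52 log2 in R167Q (2.48-fold lower, -1.31 ± 0.18, adjusted p = 0.000956). Irf1, a transcription factor of the response, fell 2.14-fold, Ifit1 2.43-fold and Oas1a 1.62-fold, and without R167Q replicate 3 the list had 2 lower calls.

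Y-linked transcripts, which the female hosts cannot supply, divided into 2 kinds. Broadly expressed ones did not differ by the test: Eif2s3y, Kdm5d and Uty averaged 8.95 ± 0.38 log2 in P81S (SD, n = 4) and 9.33 ± 0.20 log2 in R167Q (SD, n = 3), a difference of -0.39 log2 (exact permutation test, two-sided, p = 0.171, smallest possible 0.0286). Zfy1 and Zfy2, zinc finger genes of the testis and early embryo, were 6.35-fold and 7.39-fold lower in P81S. Zfy2 gave 4.80, 5.70, 5.52 and 4.92 log2 in P81S and 8.83, 6.97 and 8.57 log2 in R167Q. Of the 7 listed genes 3 fell, Zfy1, Zfy2 and Usp9y. Uba1y, a ubiquitin-activating enzyme gene named through its R167Q level, gave 7.40, 8.03, 7.56 and 6.42 log2 in P81S and 10.04, 9.28 and 9.85 log2 in R167Q (5.17-fold lower), and Usp9y, a deubiquitinase gene, was 2.84-fold lower. The Y-linked mean was 4.47 ± 0.22 log2 (SD, n = 3) in the wildtype tumours, so wildtype values of these genes are no baseline.

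Xist, the RNA of the inactive X and here a mark of female host cells, gave 6.79, 7.50, 7.54 and 8.10 log2 in P81S and 8.25, 7.98 and 8.57 log2 in R167Q. The groups overlapped by 1 array on each side, and the difference of -0.78 log2 did not pass (exact permutation test, two-sided, p = 0.0857). In the model over all genes its adjusted p was 0.104 with all arrays and 0.0455 without P81S replicate 4.

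**Figure D5:**
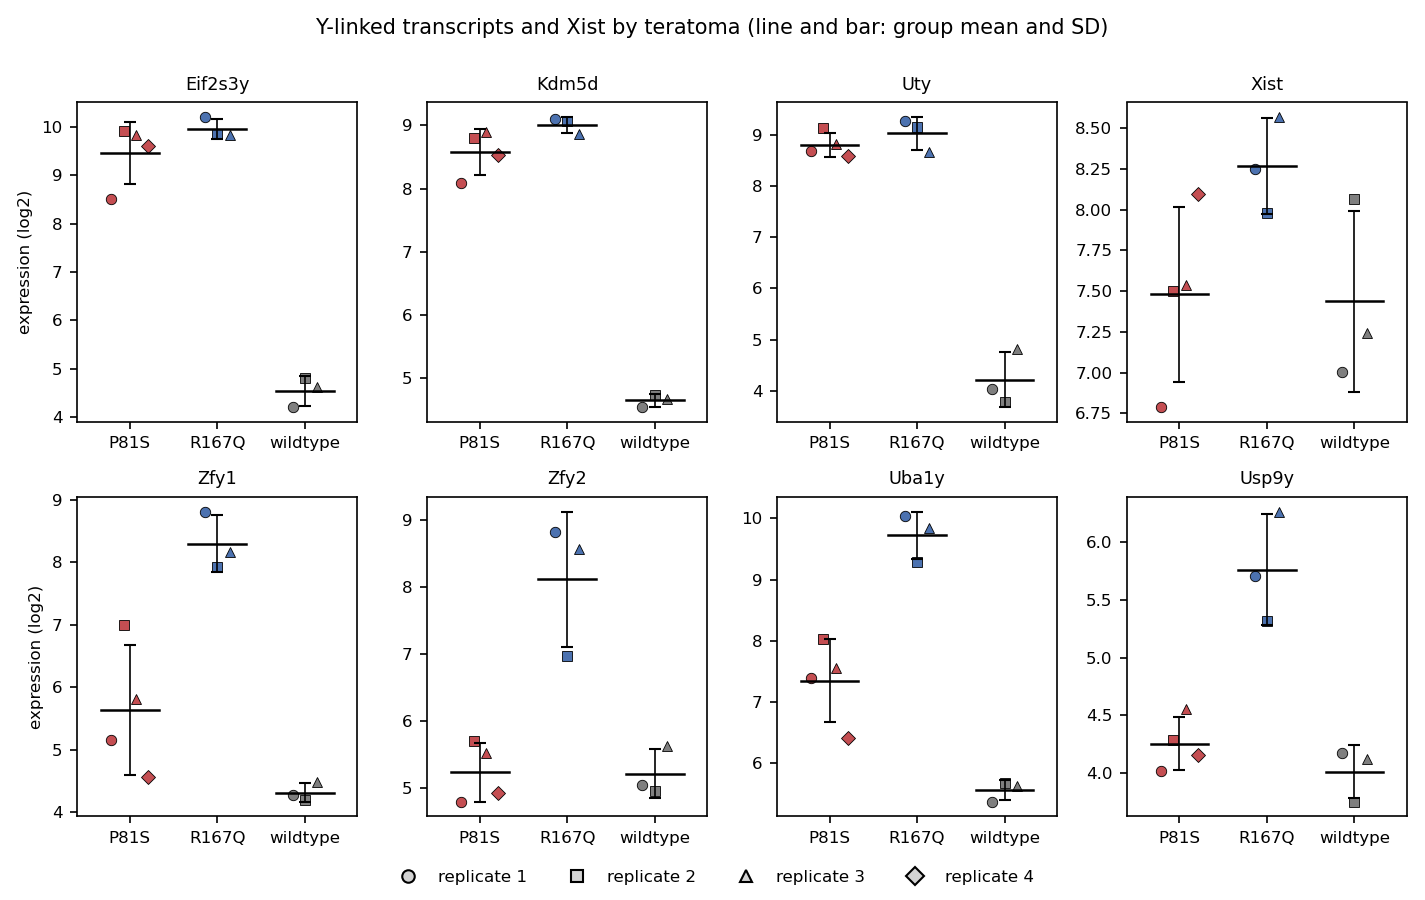
Log2 expression of 7 Y-linked genes and Xist in each teratoma by VHL form, with the group mean (line) and SD (bar). Eif2s3y, Kdm5d, Uty and Xist overlap between P81S and R167Q, while Zfy1, Zfy2, Uba1y and Usp9y lie lower in all 4 P81S arrays than in all 3 R167Q arrays.

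In a small part of the genes R167Q lay outside the range of both other forms. Of 18820 genes 4234 were called, and among these all 3 R167Q arrays lay above the other 7 arrays in 30 and below them in 59. How many would do so by chance was not worked out. Across all genes R167Q and wildtype arrays resembled each other closely (r of 0.979 to 0.989). The 6 highest were Tpbpa, its relative Tpbpb (4.19-fold lower in P81S than in R167Q), Prl7b1, of the prolactin family (6.40-fold), Zfy2, Zfy1 and Uba1y, for the last 3 of which wildtype is no baseline. Prl7b1 gave 8.05, 7.11 and 7.42 log2 in R167Q, 4.13 to 5.76 log2 in P81S and 5.89, 7.08 and 6.46 log2 in wildtype, so that R167Q replicate 2 and wildtype replicate 2 nearly met. Among the 6 in which R167Q was lowest, Ptgds, prostaglandin D synthase of the brain's membranes, gave 7.22, 7.28 and 7.39 log2 in R167Q, 7.83 to 10.37 log2 in P81S and 7.57 to 8.23 log2 in wildtype (3.60-fold higher in P81S, lost without R167Q replicate 1).

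Cited1, an X-linked transcriptional coregulator, gave 7.84, 8.20 and 8.0 log2 in R167Q against 8.53 to 9.26 log2 in P81S and 8.49 to 8.66 log2 in wildtype (1.96-fold). The others of that group were Six3, described above, Pcdhb1, a protocadherin of neurons (2.12-fold), Otp, a factor of hypothalamic neurons (1.86-fold), and Ccna1, a cyclin of germ cells (1.87-fold). The calls of Otp and Ccna1 ended without R167Q replicate 1 or 3.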

How the data were processed

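The authors deposited log2 expression values, 1 per probe set and array. Total RNA of frozen teratomas was labelled with biotin through an oligo(dT) primer and hybridised to 1-colour Affymetrix arrays, per the labels' protocols. RMA and Partek are named in the submitters' processing notes without versions or roles, and RMA ordinarily sets arrays to 1 distribution, so each value is relative to the other transcripts of its array. Arrays have no depth; precision rests on how many there are.

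Of 35556 probe sets, 6616 without a listed gene at the low end of the numbering were left out as a control block. Of the other 28940, 21218 were paired with 1 gene, 1881 with several and 5841 with none in the platform annotation. Entrez numbers matched RefSeq (GRCm38.p6) for 21185. For each of the 18820 genes the probe set of highest average across all 10 arrays was kept.

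All 10 arrays entered 1 model with 3 group means in limma 3.58.1 (lmFit, eBayes with trend, two-sided; R 4.3.3), which had 7 residual degrees of freedom. P-values were adjusted by Benjamini-Hochberg. For Xist and the Y-linked mean, an exact permutation test was used. On simulated data the model recovered 70 of 100 changes of 1 log2 and 95 of 100 changes of 2 log2, with 11 false calls. Those arrays were drawn independently, without shared clones, so the outcome does not cover the clones of the P81S tumours. Only 100 genes were changed at each size, while 22.5% of genes were called in the real data, so these rates need not carry over. The 59 gene lists hold 1385 measured entries, 45 genes being in several lists.

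Named genes were Vhl, the 15 largest rises and 15 largest falls among called genes without overlap of arrays, the 6 highest and 6 lowest among called genes with R167Q outside all other arrays, the 4 members of each list with the smallest p, and Xist, Eif2s3y, Kdm5d and Uty. Genes outside this rule are given for a defining role or for their sequence, after their values were seen. The comparison, lists and rule were chosen with earlier results of these data known. Alternatives changed the normalization, the filter on dim genes, probe sets per gene, the variance model, the arrays in the model, array weights, blocks and the genes tested, and left out each array in turn.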

Additional observations from a re-analysis of the deposited data

Results flagged for a closer look

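For 106 values (list means and the most changed genes), the gap between the highest or lowest of the 4 P81S arrays and its nearest neighbour was divided by their range and set against Dixon's critical value. It was exceeded by 1, and chance alone marks about 1 in 20 such groups. The epithelial and matrix list means of P81S replicate 1 did not exceed it. Tktl1, the transketolase-like gene, was 6.31 log2 in P81S replicate 2 against 5.16 to 5.27 log2 in the other P81S arrays, and all 4 values lay below the 8.55 to 8.95 log2 of R167Q.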

How the results depend on the processing

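Of 196 called named genes, 0 changed sign under any alternative, 140 kept their call whichever single array was left out, 158 kept it under the 13 other alternatives apart from the replicate block, and 166 kept it with the replicate block. Genes called numbered 2328 to 4916 when single arrays were left out, those higher 1352 to 2677 and those lower 976 to 2239. The replicate number as a block gave 2952 calls, 1715 higher and 1237 lower. Deviations of same-numbered P81S and R167Q arrays from their group means correlated with r of 0.08, 0.18 and -0.28. With so few arrays per group these values cannot settle whether the numbers pair the tumours. Array weights gave 5960 calls, the 7 arrays alone 3394, the possible pairings of P81S clones 4131 to 4874, and the genes outside chromosomes 8, 11 and Y 3686. Exact tests of Xist and the Y-linked mean did not pass with quantile normalization or median centring, and with 1 P81S or R167Q array left out too few remain for them to pass at all. The model's adjusted p for Xist was 0.0454 with the replicate block. Array data without scanner files give no signal over background, so falls to values near the floor have no bound.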
